A study of Mus musculus with 18 samples.

Results

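Cells keep reactive oxygen species in check with a set of enzymes that make, recycle and spend reduced thiols. The genes described here are 54 glutathione, thioredoxin and peroxide defence genes, taken by name from a table of RNA-seq read counts that holds 35275 genes. Of these, 53 were found by symbol, and Selenos was found by its gene identifier because the table lists it under the older name Vimp. The genes fall into 8 role groups: glutathione synthesis, recycling and breakdown, glutaredoxins, glutathione peroxidases, glutathione transferases, the thioredoxin system, peroxiredoxins, superoxide dismutases with catalase, and other redox genes. The list was drawn up with earlier results of these libraries known, and several of its genes, Glrx and Txnrd1 among them, were singled out by the study from the same libraries. Their direction in these libraries is therefore not independent evidence. The study also measured Glrx and Txnrd1 by RT-qPCR, in tumor-derived lines and in whole tumor lysates.

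The cells were mouse lines of malignant peripheral nerve sheath tumor (MPNST), an aggressive sarcoma that arises along nerves. Tumors were induced in wild-type 129 Sv/Jae mice by injecting the sciatic nerve with an adenovirus carrying Cas9, driven by the CMV promoter, and guide RNAs. In one group the guides targeted Nf1 and p53 (Nf1/p53 dKO), and in the other Nf1 and Cdkn2a, the locus of p16 and p19 (Nf1/Cdkn2a dKO), so that both groups share the targeting of Nf1. Each group held 3 lines, each line came from 1 tumor, and each line was sequenced from 3 cultures, which gave 18 libraries. The lines had been passaged many times in serum-containing medium, were not treated, and had no wild-type or Nf1-only counterpart in these libraries. The age of the mice is not given. Values for a line are the sum of the reads of its 3 cultures, so that the comparison between genotypes rests on 3 lines against 3. Its p-values set the difference between the genotypes against the spread between lines of one genotype. Where 3 values stand against 3, the former are Nf1/p53 dKO lines 1 to 3 and the latter Nf1/Cdkn2a dKO lines 1 to 3.

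Libraries held 19560535 to 28312207 counted reads, and the 54 genes took 0.481 to 0.698% of them. Of the targeted genes, Trp53 was lower in the Nf1/p53 dKO lines (94.1, 67.5 and 58.7 against 247, 246 and 185 CPM; adjusted p = 0.0361), where CPM are counts scaled for library size, while the levels of Nf1 and Cdkn2a overlapped between the genotypes. A count per gene does not show small insertions or deletions, so Nf1 and Cdkn2a do not check the labels. The labels call the cells mesenchymal, and all 7 mesenchymal markers were detected (summed level 7274 to 17193 CPM for Nf1/p53 dKO and 9914 to 16686 CPM for Nf1/Cdkn2a dKO). Sox10, a marker of the Schwann lineage, reached 0.099 CPM at most in any line. Of other Schwann lineage markers, S100b and Erbb3 stayed at or under 1.80 CPM, while Ngfr reached 64.3 CPM in Nf1/p53 dKO line 2 (at most 1.139 CPM elsewhere) and Foxd3 5.45 CPM in Nf1/p53 dKO line 1 (at most 0.344 CPM elsewhere). Muscle lineage markers moved with the genotype, and 5 of 6 were detected. Their summed level ran from 53.7 to 417 CPM for Nf1/p53 dKO and from 0.203 to 0.802 CPM for Nf1/Cdkn2a dKO. Across Nf1/p53 dKO lines 1 to 3, Myf5 was even (28.0, 24.2 and 27.7 CPM). Line 3 was the highest for Cdh15 (34.2, 27.9 and 97.6 CPM), Des (21.6, 1.30 and 86.6 CPM) and Myod1 (1.75, 0.269 and 204 CPM). Myog reached 1.07 CPM at most, and Pax7 stayed at or under 3 reads in every culture. Epithelial markers ran from 2.67 to 739 and from 8.26 to 611 CPM, nearly all of it Krt8 and Krt18 in 5 of the lines, while Cdh1 was the highest at 1.26 CPM in Nf1/p53 dKO line 3, which had the lowest sum. Leukocyte markers summed to 3.72 to 7.58 and 6.56 to 8.13 CPM with Adgre1 and Cd3e at or under 3 reads in every culture, and endothelial markers to 1.28 to 2.02 and 0.641 to 1.93 CPM. The part of these markers in the values below was not tested.

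Glutathione is a tripeptide made in a pair of steps, of which the first is carried out by glutamate-cysteine ligase (Gclc with its modifier Gclm) and the second by glutathione synthetase (Gss). Glutathione peroxidases, glutaredoxins and glutathione transferases use it to reduce peroxides, to strip glutathione from proteins and to conjugate foreign or oxidized molecules, and glutathione reductase (Gsr) restores it with NADPH. The thioredoxin system works alongside: thioredoxin reductases use NADPH to reduce thioredoxin, which in turn reduces the peroxiredoxins, while superoxide dismutases turn superoxide into hydrogen peroxide and catalase breaks that down. Many of these genes are known targets of NRF2 (Nfe2l2), a transcription factor that is held back by Keap1 in unstressed cells and binds antioxidant response elements.

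Because of that link, the core of the antioxidant response element, TGACNNNGC, was the one motif looked for, on both strands of the RefSeq promoters (assembly GRCm38.p6), each 300 bases long from 250 bases before to 50 bases after a start site. Promoters were found for 45 of the 54 genes, and 10 of the 45 (22.2%) held the letters, against 13.99% of all 27025 genes with a promoter. Counted by promoter the shares were 18.2% of 55 and 12.4% of 32851. The 10 genes were Gclm, Gstm5, Gstm7, Mgst1, Txnrd1, Srxn1, Prdx1, Sod1, Atox1 and Prnp. For 6 of these 10 genes the lines of one genotype were fully separated from those of the other, as for 31.4% of all genes tested, and the stretches around their matches are shown for that reason. Each is written 5′ to 3′ on the strand of its gene, with the match in capitals.
Gstm5, plus strand, chr3:107895802-107895830, middle of the match at −38 from the start site: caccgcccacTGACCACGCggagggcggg
Txnrd1, plus strand, chr10:82859104-82859132, middle of the match at −88 from the start site: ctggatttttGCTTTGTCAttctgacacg
Prdx1, plus strand, chr4:116685456-116685484, middle of the match at −129 from the start site: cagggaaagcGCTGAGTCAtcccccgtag
Sod1, plus strand, chr16:90220696-90220724, middle of the match at −52 from the start site: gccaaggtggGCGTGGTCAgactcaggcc
Atox1, minus strand, chr11:55461264-55461292, middle of the match at −70 from the start site: ggccgggcctTGACGAAGCtagccccgga
Prnp, plus strand, chr2:131909746-131909774, middle of the match at −168 from the start site: tagttgctgaGCGTCGTCAgggagtgctg
The match in Gstm5 and that in Atox1 read in the direction of the gene, and the other 4 lie on the opposite strand. Txnrd1 has other start sites, and its promoters at chr10:82833701-82834000 and chr10:82860091-82860390 held no match. A count per gene does not say which start site was used. A match to the motif is a description of letters and not a shown binding site. Nfe2l2 itself stood at 129, 122 and 131 against 234, 196 and 269.9 CPM (log2 fold change 0.87, SE 0.16, adjusted p = 0.0512), and its inhibitor Keap1 at 36.3, 38.4 and 59.1 against 40.1, 41.5 and 43.3 CPM (log2 fold change −0.10, SE 0.21, adjusted p = 0.81). The Nfe2l2 levels did not overlap between the genotypes, but neither gene passed the threshold. The study reported more Nfe2l2 transcript with Cdkn2a targeted, by its own test on these libraries and by RT-qPCR in lines and whole tumor lysates. It saw no difference in Keap1.

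The first question was whether the redox defence genes differ between the 2 genotypes. Glrx, the cytosolic glutaredoxin that removes glutathione from oxidized proteins, was 2.56-fold higher in the Nf1/Cdkn2a dKO lines, and Gstm5, a mu-class glutathione transferase, was at 0.341 of its Nf1/p53 dKO level. Glrx measured 11.6, 14.1 and 18.8 CPM across Nf1/p53 dKO lines against 36.2, 40.6 and 37.2 CPM across Nf1/Cdkn2a dKO lines. Its mean was 14.8 ± 3.65 CPM for Nf1/p53 dKO and 37.98 ± 2.32 CPM for Nf1/Cdkn2a dKO (SD, n = 3 lines each), with a log2 fold change of 1.36 (SE 0.21, adjusted p = 0.0451). Gstm5 measured 37.0, 23.7 and 29.3 CPM across Nf1/p53 dKO lines against 8.79, 9.14 and 12.8 CPM across Nf1/Cdkn2a dKO lines, with means of 30.0 ± 6.67 CPM for Nf1/p53 dKO and 10.2 ± 2.22 CPM for Nf1/Cdkn2a dKO (SD, n = 3 lines each) and a log2 fold change of −1.55 (SE 0.25, adjusted p = 0.0465). For both genes the lines of the 2 genotypes were fully separated. Gstm5 shares 178 bases of exon with 4933431E20Rik on the opposite strand, which held 926 reads where Gstm5 held 8664. In bulk RNA, fewer cells that express a gene and less RNA per cell cannot be told apart.

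Those were the only 2 of the 53 tested genes with an adjusted p under 0.05 by edgeR's quasi-likelihood test, adjusted over all 15207 genes tested, where 1.80% of all genes passed (0.638% with a higher and 1.16% with a lower level in the Nf1/Cdkn2a dKO). Ggt5, a gamma-glutamyltransferase family member, had at most 13 reads in any culture and was not tested. Both calls lay close to the threshold. With one line left out at a time, the log2 fold change of Glrx ranged from 1.21 to 1.57 and its adjusted p from 0.038 to 0.142. It stayed under 0.05 only when Nf1/p53 dKO line 3 was left out. For Gstm5 the ranges were −1.74 to −1.37 and 0.0734 to 0.15, so its call was lost whichever line was left out. DESeq2 on the 6 lines called 12 of the genes (8 higher and 4 lower, with 12.0% of all genes called), and DESeq2 with the 18 cultures taken as separate samples called 35 (21 higher and 14 lower, with 39.3% of all genes called). The latter counts cultures of one tumor line as independent.

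Counting those 2, 22 of the 53 genes (41.5%) had an unadjusted p under 0.05, 16 of them above and 6 below 0 in fold change, where the shares over all genes were 22.4%, 9.81% and 12.5%. Lines of the 2 genotypes did not overlap for 21 genes (39.6%), 16 higher and 5 lower, against 31.4% of all genes (14.8% higher and 16.6% lower). The redox genes had a higher median level (67.3 against 18.9 CPM over all genes tested) and were listed with earlier results known. What depth and choice add to these shares was not tested. The log2 fold change was above 0 for 32 of 53 genes (60.4%), against 48.2% of all genes, and its median was 0.17 against −0.023. With raw library totals in place of TMM scaling, 27 of 53 were above 0 and the medians were 0.038 and −0.16, so that the distance between the medians was 0.196 in place of 0.195. Over the 10 genes with a match to the antioxidant response element core the median log2 fold change was 0.39 (7 of 10 above 0), and over the 35 without it was 0.19 (22 of 35 above 0). Lines were fully separated for 5 genes with a match that were higher and 1 that was lower in the Nf1/Cdkn2a dKO, and for 11 and 3 of those without. In each set 1 gene passed the test, Gstm5 with a match and Glrx without. The plot of fold changes by role shows the genes side by side.

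**Figure D1:**
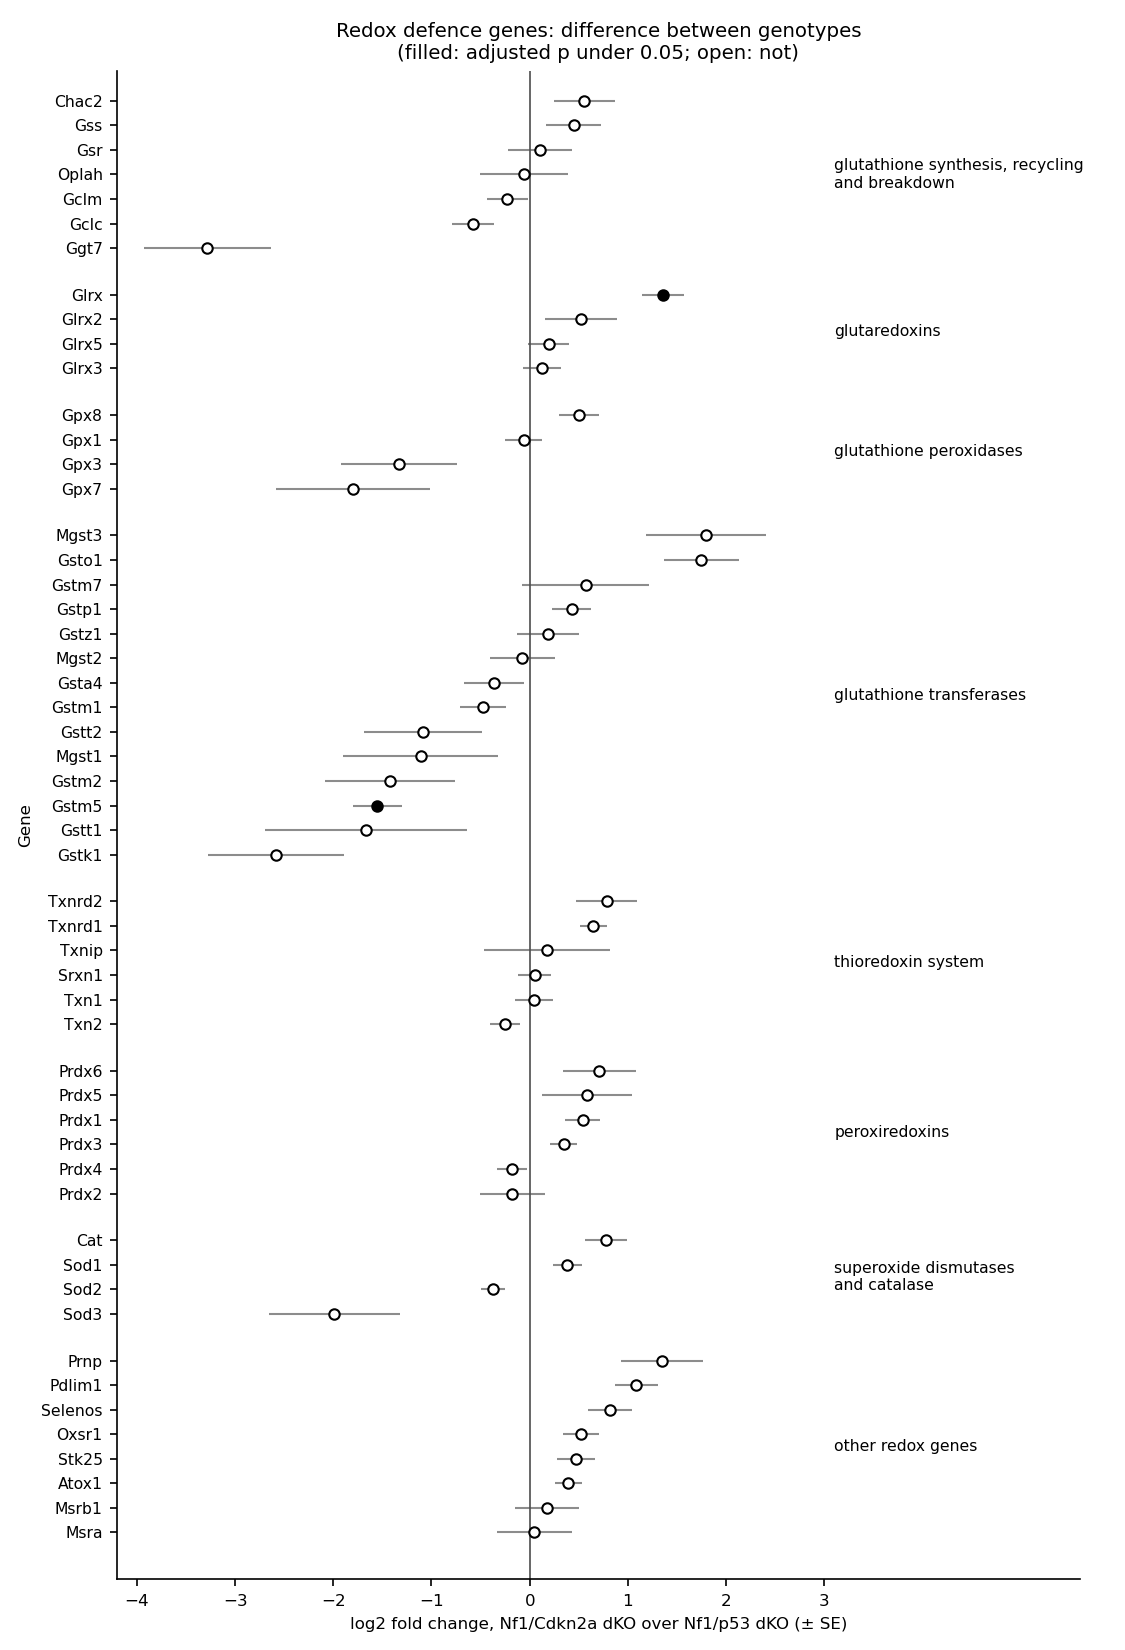
The x axis gives the log2 fold change between the genotypes (positive means higher in the Nf1/Cdkn2a dKO) and the y axis the 53 tested genes by role group, with bars for the standard error and filled points for an adjusted p under 0.05. Only Glrx (1.36) and Gstm5 (−1.55) are filled, and the widest range within a group is that of the glutathione transferases, from −2.58 for Gstk1 to 1.80 for Mgst3.

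Levels of different genes were summed per kilobase of exon, with the exons of a gene merged. On this scale the 54 genes together gave 2240, 2072 and 2167 CPM per kb for the Nf1/p53 dKO lines. Those with Nf1/Cdkn2a dKO gave 3035, 2760 and 2846 CPM per kb. The sum was higher in every Nf1/Cdkn2a dKO line than in any Nf1/p53 dKO line. Glutathione transferases contributed most to this gap, with means of 353 ± 57.4 and 682 ± 87.3 CPM per kb (SD, n = 3 lines each). Gsto1 alone made up 33.7% of that group's level in the Nf1/p53 dKO but 58.5% of it in the Nf1/Cdkn2a dKO. Other redox genes (281 ± 43.8 and 459 ± 55.5), peroxiredoxins (488 ± 72.0 and 625 ± 54.8) and superoxide dismutases with catalase (76.0 ± 6.10 and 90.2 ± 2.53 CPM per kb) were likewise separated between the genotypes. The sums of the other 4 groups overlapped. On this scale the thioredoxin system had the most transcript of the groups in the Nf1/p53 dKO, at 503 ± 57.3 against 534 ± 52.6 CPM per kb. Txn1 gave 70.9% and 69.1% of that group's level. Merged exons can be longer than a transcript: 2023 bases for Gsto1 and 3970 for Sod1, where the longest coding transcripts have 1182 and 641. For Txn1 both lengths are 1051 bases, so the order of genes and groups can depend on the length used. These sums are descriptions and were not tested.

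**Figure D2:**
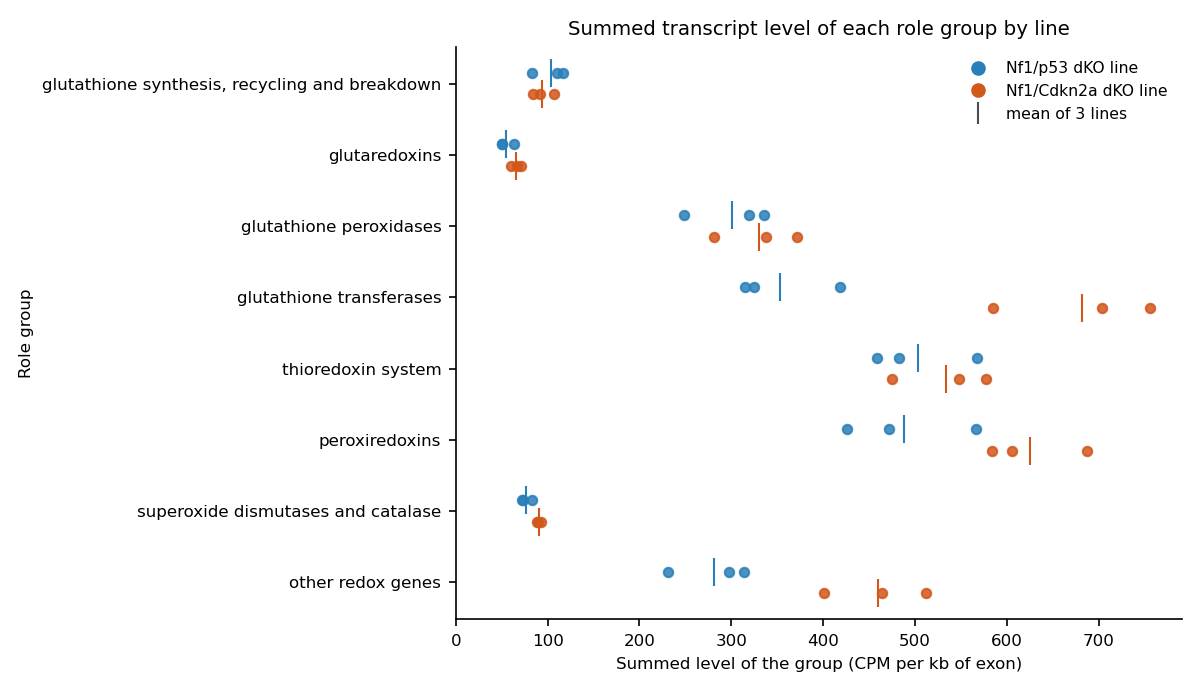
The x axis gives the summed level of each role group in CPM per kb of exon, with one point per line and a tick at the mean of 3 lines, blue for the Nf1/p53 dKO and orange for the Nf1/Cdkn2a dKO. The glutathione transferase points lie at 314 to 419 and at 585 to 756, while those of the glutathione synthesis group overlap at 82.7 to 117 and 84.1 to 107 CPM per kb.

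In glutathione synthesis, recycling and breakdown, none of the 7 tested genes passed the test, 3 were above and 4 below 0, and the median log2 fold change was −0.057. Gclc, the catalytic subunit of the rate-limiting ligase, measured 124, 119.9 and 147 against 114, 69.2 and 78.5 CPM (log2 fold change −0.58, SE 0.22, adjusted p = 0.183). Its highest Nf1/Cdkn2a dKO line lay just below its lowest Nf1/p53 dKO line. Ggt7, another member of the gamma-glutamyltransferase family, had the lowest fold change of all 53 genes: 3.22, 11.9 and 13.2 against 0.93, 1.41 and 0.563 CPM (log2 fold change −3.28, SE 0.65, adjusted p = 0.0584). It passed the threshold when Nf1/p53 dKO line 1, the lowest of its group, was left out (adjusted p = 0.046). At the other end stood Chac2, an enzyme that degrades glutathione in the cytosol, with 13.2, 7.79 and 6.54 against 14.4, 11.8 and 14.3 CPM (log2 fold change 0.55, SE 0.31, adjusted p = 0.343), and here the groups overlapped. Gsr had the highest level of the group over the 6 lines, at 33.4 CPM per kb, though Gclc was above it in the Nf1/p53 dKO (34.6 and 32.2 CPM per kb). Gsr measured 105, 52.9 and 108 against 102, 116 and 67.7 CPM (log2 fold change 0.10, SE 0.33, adjusted p = 0.878), with Nf1/p53 dKO line 2 and Nf1/Cdkn2a dKO line 3 low in their groups. The ligase modifier Gclm (−0.23), the synthetase Gss (0.45) and 5-oxoprolinase Oplah (−0.057), which returns glutamate from breakdown, all overlapped.

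All 4 glutaredoxins were above 0, with a median of 0.36, but Glrx3 was at −0.0063 with raw library totals and Glrx was the only one to pass. Glrx2, a mitochondrial glutaredoxin, measured 21.6, 22.6 and 8.52 against 25.1, 23.5 and 27.1 CPM (log2 fold change 0.52, SE 0.37, adjusted p = 0.443). Its lines did not overlap, although the gap was small beside the low value of Nf1/p53 dKO line 3, and without that line the log2 fold change was 0.20. Glrx3, which acts in iron handling in the cytosol, was the most abundant of the group per kilobase (30.2 CPM per kb) and measured 116, 165 and 154 against 160.2, 180.3 and 133 CPM (log2 fold change 0.12, SE 0.19, adjusted p = 0.741). Glrx5, which serves iron-sulfur cluster assembly in mitochondria, was at 56.0 to 94.8 and 86.2 to 92.7 CPM with a log2 fold change of 0.20. The 3 Nf1/Cdkn2a dKO lines lay close together for Glrx, Glrx2 and Glrx5, and of the 4 genes Glrx3 alone passed the test among them.

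None of the 4 glutathione peroxidases passed, 1 was above 0 (median −0.70), and the groups overlapped for each of them. Gpx1, the selenium-dependent peroxidase of the cytosol, was the most abundant over the 6 lines at 163 CPM per kb, though below Gpx8 in the Nf1/Cdkn2a dKO (159 and 166 CPM per kb), with 278, 252 and 189 against 263, 213 and 212 CPM (log2 fold change −0.062, SE 0.19, adjusted p = 0.872). Gpx8, of the endoplasmic reticulum, measured 142, 126 and 98.2 against 189.7, 138 and 193 CPM (log2 fold change 0.51, SE 0.20, adjusted p = 0.209). Its relative Gpx7, of the same compartment, had a fold change of the opposite sign: 7.66, 27.7 and 29.9 against 8.5, 1.41 and 8.9 CPM (log2 fold change −1.80, SE 0.79, adjusted p = 0.24). Gpx7 was low in Nf1/p53 dKO line 1 and lowest in Nf1/Cdkn2a dKO line 2. The secreted Gpx3 was at 1.27 to 3.89 and 0.49 to 1.48 CPM (log2 fold change −1.33).

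Of the 14 glutathione transferases, 5 were above and 9 below 0 (median −0.42), and Gstm5 was the only one to pass. Gsto1, the omega-class enzyme that also reduces dehydroascorbate, was the most abundant at 259 CPM per kb: 356, 245 and 119 against 903, 733 and 785 CPM (log2 fold change 1.75, SE 0.38, adjusted p = 0.0696). The lowest Nf1/Cdkn2a dKO line lay well above the highest Nf1/p53 dKO line. Mgst3, a microsomal transferase with peroxidase activity, had the highest fold change of all 53 genes, with 59.1, 17.3 and 12.5 against 115, 67.8 and 126 CPM (log2 fold change 1.80, SE 0.61, adjusted p = 0.158). Nf1/p53 dKO line 1 lay near Nf1/Cdkn2a dKO line 2, and with that Nf1/p53 dKO line left out Mgst3 passed (log2 fold change 2.79, adjusted p = 0.0462). Gstk1, the kappa-class enzyme of mitochondria and peroxisomes, lay lower in all Nf1/Cdkn2a dKO lines at 8.06, 4.91 and 7.13 against 0.257, 1.28 and 1.81 CPM (log2 fold change −2.58, SE 0.69, adjusted p = 0.101), on few reads, since its lowest culture had 3.

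The mu-class transferases Gstm1, Gstm2, Gstm5 and Gstm7 sit within 122 kb on chromosome 3 (chr3:107895821-108017973, GRCm38) and had values on both sides of 0. Gstm5 lies at chr3:107895821-107898686 on the plus strand. Gstm2 measured 11.3, 34.9 and 23.5 against 8.1, 2.84 and 15.01 CPM (log2 fold change −1.42, SE 0.66, adjusted p = 0.263), Gstm1 had a log2 fold change of −0.47 and Gstm7 one of 0.57, and all 3 overlapped between the genotypes. Gstm4, a mu-class gene of the further pathway lists, measured 9.83, 6.99 and 10.47 against 2.66, 5.70 and 5.69 CPM (log2 fold change −0.96, SE 0.37, adjusted p = 0.199), with separated lines. Among the rest, the theta-class Gstt1 measured 0.735, 1.64 and 5.66 against 0.802, 0.144 and 1.58 CPM (log2 fold change −1.67, SE 1.03, adjusted p = 0.383) and the microsomal Mgst1 10.2, 10.8 and 5.53 against 0.947, 2.38 and 8.96 CPM (log2 fold change −1.11, SE 0.79, adjusted p = 0.45). Both had lines of one genotype further apart than the genotypes themselves. Gstt2 (−1.09), Gsta4 (−0.36), Mgst2 (−0.074), Gstz1 (0.19) and Gstp1 (0.43) did not pass either, and their lines overlapped.

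In the thioredoxin system, Txnrd1 and Txnrd2 lay higher in all Nf1/Cdkn2a dKO lines while thioredoxin itself did not, and none of the 6 genes passed. The further reductase Txnrd3, from the wider pathway lists, measured 17.7, 10.6 and 15.6 against 7.91, 12.3 and 7.98 CPM and overlapped (log2 fold change −0.64, SE 0.30, adjusted p = 0.269). Txnrd1, the cytosolic reductase, measured 283, 327 and 277 against 458, 433 and 500.3 CPM (log2 fold change 0.65, SE 0.14, adjusted p = 0.0686). Its lines were close to each other within each genotype. Txnrd2, its mitochondrial counterpart, was far less abundant (2.14 against 53.6 CPM per kb) and measured 8.88, 7.21 and 4.68 against 10.5, 10.7 and 14.6 CPM (log2 fold change 0.79, SE 0.31, adjusted p = 0.204). Per kb of merged exon, Txn1, the cytosolic thioredoxin, had the highest level of all 54 genes over the 6 lines at 363 CPM per kb. Gsto1 exceeded it in the Nf1/Cdkn2a dKO (399 and 369 CPM per kb), and this order can depend on the gene length used. Txn1 measured 351, 326 and 449 against 420.2, 425 and 317 CPM (log2 fold change 0.046, SE 0.19, adjusted p = 0.907). Mitochondrial Txn2 had the lowest fold change of the group, with 223, 211 and 224 against 219.7, 164 and 169 CPM (log2 fold change −0.25, SE 0.16, adjusted p = 0.389). Sulfiredoxin, Srxn1, which repairs overoxidized peroxiredoxins, was at 109 to 138 and 107 to 146 CPM (0.050), and Txnip, the thioredoxin inhibitor, is described with the line differences. Of these 6 genes 5 were above 0, but with raw library totals Txn1 (−0.088) and Srxn1 (−0.087) were below 0, which left 3 above it.

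Among the 6 peroxiredoxins, 4 were above 0 (median 0.44), none passed, and the lines of Prdx1 and Prdx3 did not overlap. Prdx1, the main cytosolic peroxiredoxin and the group's most abundant member at 231 CPM per kb, measured 607, 539 and 570.2 against 848, 982 and 669 CPM (log2 fold change 0.54, SE 0.18, adjusted p = 0.148). Prdx3, of the mitochondria, measured 70.8, 83.1 and 76.9 against 109, 92.4 and 91.5 CPM (log2 fold change 0.35, SE 0.14, adjusted p = 0.204). Prdx6, which uses glutathione and has phospholipase activity, had the highest value of the group, at 162, 200.01 and 101 against 245, 358 and 154 CPM (log2 fold change 0.71, SE 0.37, adjusted p = 0.308), but Nf1/Cdkn2a dKO line 3 lay inside the range of the other genotype. Prdx2 had the lowest, at 303, 183 and 458 against 263, 327 and 243 CPM (log2 fold change −0.18, SE 0.33, adjusted p = 0.78), where Nf1/p53 dKO lines 2 and 3 were the lowest and the highest of all 6 lines. Prdx4, of the endoplasmic reticulum, and Prdx5, of mitochondria and peroxisomes, had log2 fold changes of −0.18 and 0.59 and overlapped.

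Of the superoxide dismutases and catalase, 2 were above and 2 below 0, and none of the 4 passed. Sod1, the cytosolic copper-zinc enzyme and the most abundant of the group (42.7 CPM per kb), measured 149, 159.6 and 133 against 201, 208 and 166 CPM (log2 fold change 0.38, SE 0.15, adjusted p = 0.199). Cat, which breaks down hydrogen peroxide in peroxisomes, measured 63.5, 47.6 and 37.8 against 78.9, 79.4 and 96.4 CPM (log2 fold change 0.77, SE 0.22, adjusted p = 0.108). Both were higher in every Nf1/Cdkn2a dKO line. Mitochondrial Sod2 was lower in each of them, at 77.4, 85.7 and 92.3 against 64.6, 66.7 and 65.3 CPM (log2 fold change −0.38, SE 0.12, adjusted p = 0.147). Its 3 Nf1/Cdkn2a dKO lines lay close together. Extracellular Sod3 had the lowest fold change of the group, at 14.05, 59.6 and 54.2 against 4.25, 13.5 and 14.5 CPM (log2 fold change −1.99, SE 0.66, adjusted p = 0.152), but Nf1/p53 dKO line 1 lay inside the range of the other genotype.

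The 8 other redox genes were all above 0 (median 0.50), 7 of 8 with raw library totals, where Msra was at −0.092. Lines were separated for 6 of the 8, all higher in the Nf1/Cdkn2a dKO, and none passed. Over all genes tested 31.4% were separated, 14.8% with a higher level. Prnp, which encodes the copper-binding prion protein, measured 109, 128 and 45.4 against 267, 161 and 290.0 CPM (log2 fold change 1.35, SE 0.42, adjusted p = 0.129). Pdlim1, an adaptor of the actin cytoskeleton, measured 213, 202 and 154 against 461, 301 and 444 CPM (log2 fold change 1.08, SE 0.22, adjusted p = 0.0612). Selenos, a selenoprotein of the endoplasmic reticulum membrane, measured 44.6, 66.7 and 44.2 against 78.2, 110.1 and 85.2 CPM (log2 fold change 0.81, SE 0.22, adjusted p = 0.106). The smallest of the 6 differences was that of Atox1, the copper chaperone and the most abundant of the group at 136 CPM per kb, with 68.1, 63.1 and 59.2 against 81.1, 76.8 and 92.2 CPM (log2 fold change 0.39, SE 0.13, adjusted p = 0.156). The kinases Oxsr1 and Stk25, which respond to oxidative and osmotic stress, measured 69.3, 61.1 and 80.6 against 101, 119 and 82.97 CPM (log2 fold change 0.52, SE 0.18, adjusted p = 0.166) and 47.02, 45.05 and 31.3 against 54.7, 54.5 and 61.9 CPM (log2 fold change 0.47, SE 0.19, adjusted p = 0.209). Of the methionine sulfoxide reductases, Msra measured 4.59, 6.85 and 12.2 against 7.54, 8.18 and 8.66 CPM (log2 fold change 0.045, SE 0.38, adjusted p = 0.959), and Msrb1 was at 25.1 to 48.9 and 31.8 to 59.6 CPM (0.18).

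**Figure D3:**
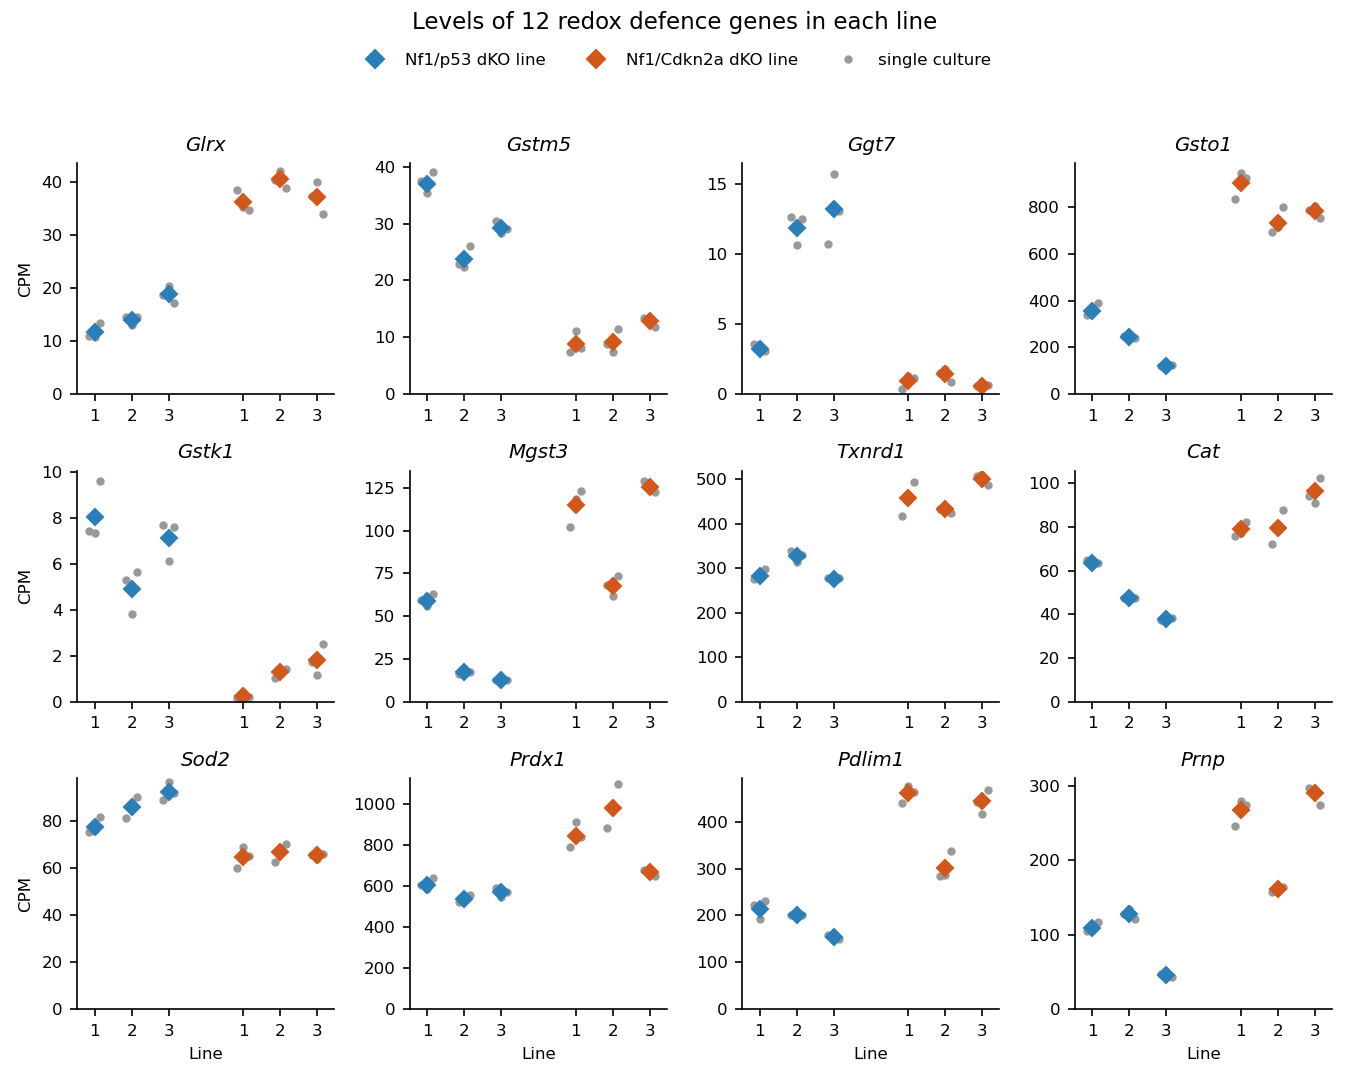
Each panel gives the level of 1 gene in CPM (y axis, from 0) in the 3 lines of each genotype (x axis), with diamonds for the line (summed over its cultures) and grey points for its 3 cultures. Grey points mostly sit close to their diamond. All 12 genes shown are among the 21 of 53 tested genes whose lines did not overlap (39.6%, against 31.4% of all genes). The separation of the diamonds therefore follows from the choice of genes. The distance between the genotypes is wide for some (Glrx, 11.6 to 18.8 against 36.2 to 40.6) and narrow for others (Sod2, 77.4 to 92.3 against 64.6 to 66.7).

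The second comparison asked how much the redox defence genes differ among lines of the same genotype. Among the Nf1/p53 dKO lines, 52 of 53 genes differed (98.1%, against 79.7% of all genes tested there), and Txn2 was the exception (adjusted p = 0.232). Among the Nf1/Cdkn2a dKO lines 41 of 53 differed (77.4%, against 54.2%). These tests take the 3 cultures as the replicates of a line. The redox genes also had more reads than most, with a median level of 67.3 CPM against 18.9 CPM over all genes tested, and the part of depth in these shares was not tested. The median ratio of the highest to the lowest line was 1.81 for the Nf1/p53 dKO and 1.41 for the Nf1/Cdkn2a dKO, against 1.62 and 1.40 over all genes. Of the variance among the cultures of a genotype, a median of 93.99% and 82.4% lay between lines, against 83.9% and 55.3% over all genes.

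The spread among lines, taken as the SD of log2(CPM + 0.5) over 3 lines, was larger among the Nf1/p53 dKO lines for 34 genes and among the Nf1/Cdkn2a dKO lines for 19. This tilt is not particular to the redox genes. Over all genes tested, the median ratio of the highest to the lowest line was also larger for the Nf1/p53 dKO (1.62 and 1.40). The same count over all genes was not made. In the Nf1/p53 dKO it was largest for Gstt1 (1.18), Mgst3 (1.16), Sod3 (1.144), Gpx7 (1.07) and Ggt7 (1.05). For Sod3, Gpx7 and Ggt7 line 1 was the low one, whereas Mgst3 was high in line 1 and Gstt1 high in line 3. In the Nf1/Cdkn2a dKO the largest values were those of Mgst1 (1.37), Gpx7 (1.31), Txnip (1.22), Gstm2 (1.12) and Sod3 (0.93). Txnip measured 15.3, 37.6 and 19.95 against 21.5, 9.09 and 51.5 CPM (log2 fold change 0.17, SE 0.64, adjusted p = 0.895). Gpx7, Txnip and Gstm2 had their lowest value in line 2 and their highest in line 3. Line 2 was the lowest of its genotype for 26 of the 53 genes and line 3 the highest for 24. In the Nf1/p53 dKO, line 3 was the lowest for 22 genes and the highest for 19. How often each line was lowest or highest over all genes was not counted.

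**Figure D4:**
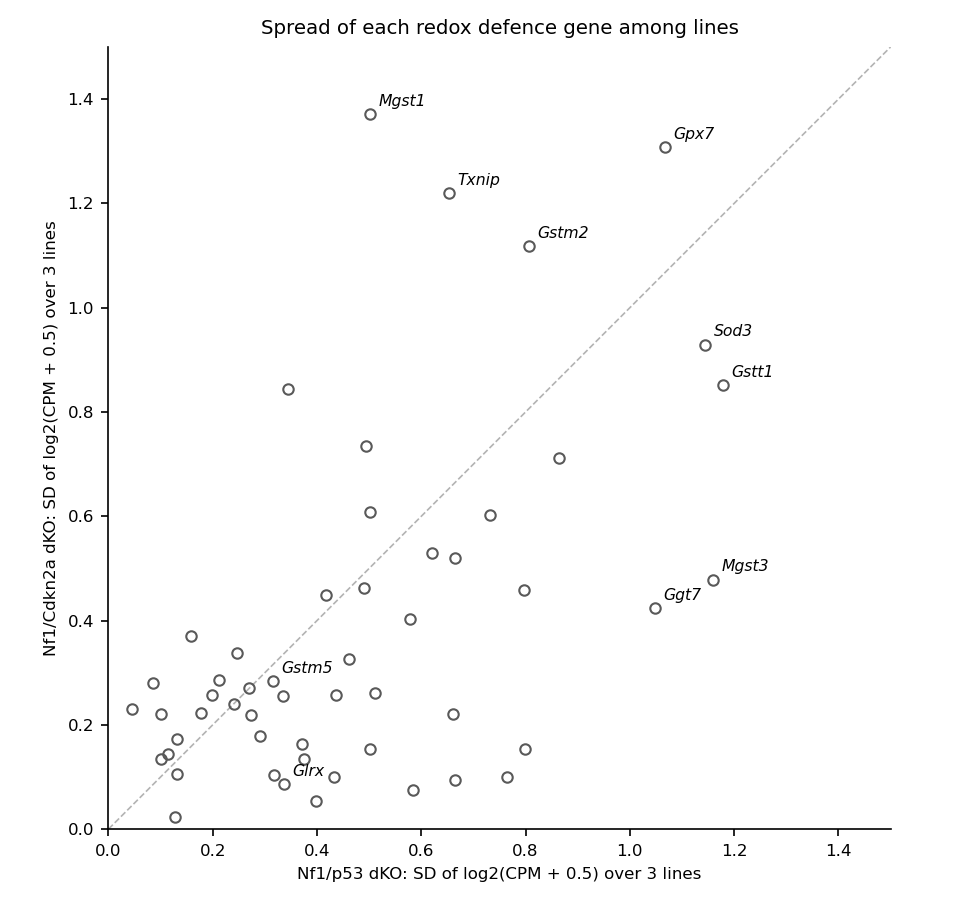
Each point is 1 of the 53 tested genes, with the SD of log2(CPM + 0.5) over the 3 Nf1/p53 dKO lines on the x axis, the same over the 3 Nf1/Cdkn2a dKO lines on the y axis, and a dashed line where both are equal. More points lie below the line (34) than above it (19), and Gpx7 and Sod3 are far from 0 on both axes (1.07 and 1.31, and 1.144 and 0.93). Over all genes tested the lines of the Nf1/p53 dKO also lay further apart (median ratio of the highest to the lowest line 1.62, against 1.40 for the Nf1/Cdkn2a dKO).

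Of 44 further genes of the same pathways, 33 were tested and none passed by edgeR, where 1.80% of all genes passed. An unadjusted p under 0.05 was found for 8 of the 33, where the share over all genes was 22.4%. DESeq2 on the 6 lines called 6 of the further genes, with 12.0% of all genes called. The log2 fold changes of the further genes were above 0 for 20 of 33 with a median of 0.19, against 48.2% and −0.023 over all genes. Among 9 tested genes of other glutathione metabolism, the highest was Ggt1, the classical gamma-glutamyltransferase, at 0.116, 0.099 and 0 against 1.19, 0.26 and 1.03 CPM (log2 fold change 3.49, SE 1.09, adjusted p = 0.132), and the lowest Ggct, a gamma-glutamylcyclotransferase, at 12.3, 30.98 and 4.51 against 9.0, 5.57 and 7.01 CPM (log2 fold change −1.15, SE 0.65, adjusted p = 0.349). Ggt1 had at most 41 reads in any culture. Among 10 tested genes of the wider glutathione transferase list the highest was Gsto2, at 14.7, 2.46 and 0.775 against 25.7, 36.03 and 22.1 CPM (log2 fold change 2.22, SE 0.99, adjusted p = 0.247), and the lowest Gstp2, at 1.55, 1.49 and 34.8 against 2.01, 1.4 and 1.33 CPM (log2 fold change −2.999, SE 1.29, adjusted p = 0.234). The Gstp2 value rested on Nf1/p53 dKO line 3 alone. Among 14 tested genes of the thioredoxin fold and peroxide list the highest was Ccs, which loads copper onto Sod1, at 19.2, 16.5 and 18.3 against 24.2, 25.2 and 30.3 CPM (log2 fold change 0.56, SE 0.17, adjusted p = 0.125), and the lowest Sesn3, a sestrin, at 15.4, 14.9 and 25.2 against 7.49, 8.38 and 9.45 CPM (log2 fold change −1.13, SE 0.28, adjusted p = 0.0864).

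Some of these counts could be shared with other genes. Gstp1 and Gstp2 share stretches of at least 97% identity over 86.1% of the Gstp1 transcript, and the table gives them 63383 and 3050 reads. Sod1 shares 72.5% of its transcript with Gm8566, which holds 51 reads. Smaller shares were found for Prdx5 (32.4%, with Trmt112), Prdx1 (26.0%, with Gm21399), Stk25 (24.3%, with Farp2), Txnip (21.6%), Prdx2 (20.5%), Gstm5 (19.2%) and Gstm2 (13.6%). For 12 of the genes an exon overlaps that of another counted gene. The partner lies on the opposite strand for Gclm, Gss, Ggt7, Oplah, Gstm5, Gstz1, Txnrd2, Txnip, Prdx2, Prdx5 and Stk25, and on the same strand for Prnp, whose partner had 1 read. Ggt7 overlaps Acss2 over 197 bases, with 2240 and 2484 reads. Since the sources used here do not say whether strand was used in counting, reads of these 12 genes and of their partners cannot be fully told apart. Glrx, at chr13:75839868-75850154 on the plus strand (GRCm38), had no such overlap.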

How the data were processed

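RNA-seq was run on 18 libraries from 6 MPNST lines, 3 cultures per line. The authors deposited raw counts, not normalized, as whole reads for each gene in each library. The submitters' processing notes name CASAVA, STAR 2.5, DESeq2 1.14.1 and GRCm38 (mm10), while the counting tool, its annotation and its use of strand are not given in the sources used here. Columns were assigned to genotypes, lines and cultures by the labels of their samples.

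The 3 cultures of a line were added up. After filterByExpr (10 counts, 15 in total) and TMM scaling in edgeR, genes were compared between the genotypes with the two-sided quasi-likelihood F-test and Benjamini-Hochberg adjustment over all genes tested (threshold 0.05). No exact permutation test was used, since 3 against 3 can reach only p = 0.1. Lines within a genotype were compared with the same test on 9 cultures. A positive log2 fold change means higher in the Nf1/Cdkn2a dKO. Fold changes carry edgeR's small prior count, and the standard error is the fold change divided by the root of the F statistic. CPM were computed from the deposited counts, and levels of different genes were compared per kb of union exon (GENCODE M21). Every library held at least 19560535 counts. The error of the comparison between genotypes comes from the spread among the 3 lines of each. In the comparison of lines it comes from the spread among the 3 cultures of a line. No source used here mentions molecular identifiers.

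The genes and lists were chosen with earlier results of these data known. Named in full were genes with an adjusted p under 0.05, genes with an unadjusted p under 0.05 whose lines did not overlap (at most 20), the extremes and the most abundant gene of each role group, and the 5 genes with the widest spread among lines of each genotype. Of the further pathway genes, the extremes of each list were named. Shared stretches were found with BLAST (at least 97% identity over at least 100 bases). The scripts were tested on simulated data. Alternatives were DESeq2 on the lines or cultures, limma-voom on cultures (line as random effect), other scalings and filters, blocks, and each line left out. Tools were R 4.3.3, edgeR 4.0.16, limma 3.58.1, DESeq2 1.42.0 and Python 3.11.15 with numpy 2.4.6, pandas 2.3.3 and matplotlib 3.10.9.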

Additional observations from a re-analysis of the deposited data

Results flagged for a closer look

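For each tested redox gene and each genotype, the highest and the lowest of 9 cultures were set against the rest, in 106 sets. For independent values chance would flag about 1 set in 20, but the 9 cultures come from 3 lines that differ, so that rate does not hold here. A culture stood apart where its gap to the next, divided by the whole range, exceeded Dixon's 95% critical value, and this held for 2 sets. Glrx2 was at 31.0 CPM in Nf1/Cdkn2a dKO line 3 culture 2, where the next culture was at 26.4 CPM (gap over range 0.554). Gsta4 was at 28.1 CPM in Nf1/Cdkn2a dKO line 2 culture 3, where the next culture was at 18.5 CPM (gap over range 0.618). Neither gene passed the test between the genotypes.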

How the results depend on the processing

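The number of redox genes called (2) became 12 with DESeq2 on the 6 lines, 35 with DESeq2 on the 18 cultures, 19 with limma-voom (18 cultures, line as random effect), and 0 to 2 with one line left out. It was 2 with RLE factors, raw totals or at least 10 counts in every line, and 3 without a filter. The 2 called without Nf1/p53 dKO line 1 were Ggt7 and Mgst3. Over all genes, the 274 calls (1.80%) became 2060, 7186 and 2173 with the 2 DESeq2 fits and limma-voom (12.0%, 39.3% and 16.6% of all genes). They became 282 with RLE factors, 226 with at least 10 counts in every line and 411 without a filter. With raw totals 423 were called (86 higher and 337 lower, where the reported split was 97 and 177), and 0 to 172 with one line left out. Calls among the further pathway genes went from 0 to 6, 21 and 7 with the 2 DESeq2 fits and limma-voom. The cause of these differences was not tested. The median log2 fold change of the redox genes was 0.038 with raw totals and 0.15 to 0.24 with one line left out. Counts of redox genes that differ among lines of a genotype stayed within 49 to 52 and 31 to 41. In the reported fits 79.7% and 54.2% of all genes differed among lines.

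Same-numbered lines come from separate tumors and did not deviate together (correlations −0.12, −0.13 and −0.083), and neither did same-numbered cultures (−0.096 to 0.15). With the line number as a replicate block, edgeR called 0 redox genes and 0 of all genes (17 and 2740 at an unadjusted p under 0.05). With the culture number as a replicate block in limma-voom, 19 redox genes, 2012 of all genes and 6 further pathway genes were called, and in the tests among lines it gave 52 and 40.

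Some genes that were not called changed sign. With raw totals these were Gsr (−0.036), Glrx3 (−0.0063), Txn1 (−0.088), Srxn1 (−0.087) and Msra (−0.092). Txnip was at −0.12 in limma-voom, −0.00076 with the line block and −0.040 with the culture block. With one line left out, the log2 fold change ranged from −0.15 to 0.30 for Gsr, −0.44 to 0.40 for Oplah, −0.016 to 0.24 for Glrx3, −0.20 to 0.059 for Gpx1, −0.040 to 1.15 for Gstm7, −0.053 to 0.55 for Gstz1, −0.37 to 0.22 for Mgst2, −0.031 to 0.20 for Txn1, −0.66 to 0.65 for Txnip, −0.065 to 0.16 for Srxn1, −0.44 to 0.20 for Prdx2, −0.23 to 0.51 for Msra and −0.12 to 0.41 for Msrb1. Called genes kept their sign in every fit.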

Other observations

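Gstp2 was read at 34.8 CPM in Nf1/p53 dKO line 3 and at 1.33 to 2.01 CPM in the other 5 lines, while its near-copy Gstp1 stood at 113 to 208 CPM in all 6. Gsto1 and Gsto2, the omega-class transferases, were both lowest in Nf1/p53 dKO line 3 (119 and 0.775 CPM) and above every Nf1/p53 dKO line in each Nf1/Cdkn2a dKO line. The cystine transporter subunit Slc7a11, which supplies cysteine for glutathione, had 34.8, 19.7 and 5.52 CPM across Nf1/Cdkn2a dKO lines against 13.7 to 19.2 CPM across Nf1/p53 dKO lines. These genes were chosen after their values were seen, and the cause of the differences was not tested.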
